A study of Homo sapiens with 80 samples.

Results

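How far does the RNA response to extra CSNK2B depend on the lymphoma line that receives it? The comparison set the change under a CSNK2B overexpression vector in KI-JK cells against the same change in SU-DHL-1 cells, as a difference of differences (the interaction) over 12 RNA-seq libraries of the 80 samples in the series. The other samples covered lenalidomide treatment, a ZFP91 knockout, nascent transcription and chromatin. Both lines are established ALK-positive anaplastic large cell lymphomas, T-cell lymphomas driven by a fusion of the kinase gene ALK. Per the labels, SU-DHL-1 (lymph node, medium with 10% fetal bovine serum) and KI-JK (pleural effusion, 20% serum) were each transduced with the CSNK2B vector or with an empty vector, and no drug is named for these 12 libraries. The promoter of the vector, the number of cells carrying it and whether the 3 replicates of a group came from separate cultures are not stated, so p-values measure the spread between these libraries, which may be technical. Line, serum and deposited table coincided, and their parts in a difference between the responses cannot be told apart. Joining the tables by gene identifier gave 58735 genes, of which 15564 had enough counts to be tested. Of these, 11174 averaged at least 1 CPM (counts per 1000000 of the scaled library total) in both lines and carry the account that follows. The other 4390 were set apart, being under 1 CPM in SU-DHL-1 (1015), in KI-JK (1178) or in both (2197).

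CSNK2B encodes the regulatory beta subunit of casein kinase 2 (CK2), a serine/threonine kinase whose catalytic subunits are the products of CSNK2A1 and CSNK2A2. The beta subunit holds the enzyme together and helps to choose its substrates. CK2 is known for phosphorylating many proteins of growth, ribosome production, chaperone function and NF-kB and AKT signalling, and for being abundant in blood cancers. The series as a whole concerns lenalidomide, which makes the ubiquitin ligase adaptor cereblon bind zinc finger proteins such as IKZF1 and ZFP91.

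Library totals ran from 14444523 to 24115731 counts in SU-DHL-1 and from 23073232 to 28927808 counts in KI-JK. ALK, with at least 7254 counts, and TNFRSF8, which encodes CD30, with at least 6327, were abundant in all 12 libraries. The T-cell receptor gene CD3E had at most 1 count in any library and CD3G at most 2, while CD3D had 388 to 1525. Some libraries held RNA of other tissues. KRT8, an epithelial keratin gene, had 272, 50 and 435 counts in the KI-JK empty vector libraries against 3, 3 and 151 with the CSNK2B vector. GFAP, an astrocyte gene, had 317, 80 and 315 against 39, 0 and 701, and HBB, a red cell gene, 14, 10 and 43 against 0, 0 and 46. In SU-DHL-1 the collagen gene COL1A2 had 0, 62 and 63 counts with the empty vector and 0, 0 and 2 with the CSNK2B vector. The muscle actin gene ACTA1 stood at 0.500, 0.687 and 17.4 CPM in the former and 0.669, 0.352 and 0.557 CPM in the latter. The libraries high in such markers were KI-JK empty vector 1 and 3, KI-JK CSNK2B 3 and SU-DHL-1 empty vector 2 and 3. Over the 12 epithelial and stromal markers the summed level ran from 15.5 to 33 CPM and from 14.1 to 15.8 CPM in the empty and CSNK2B libraries of SU-DHL-1, and from 10.4 to 36.3 CPM and from 4.09 to 14.3 CPM in those of KI-JK. The SU-DHL-1 sums include the keratin gene KRT18, with 159 to 287 counts in every library of that line. The part of other-tissue RNA in the results was examined by leaving those 5 libraries out, a fit of 7 libraries. KI-JK empty vector 2, kept in this fit, still had 50 KRT8, 80 GFAP and 10 HBB counts. The kept KI-JK CSNK2B libraries had 3 and 3, 39 and 0, and 0 and 0. The fit therefore leaves a difference in this RNA between the KI-JK groups and cannot remove its part in KI-JK falls.

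**Figure D1:**
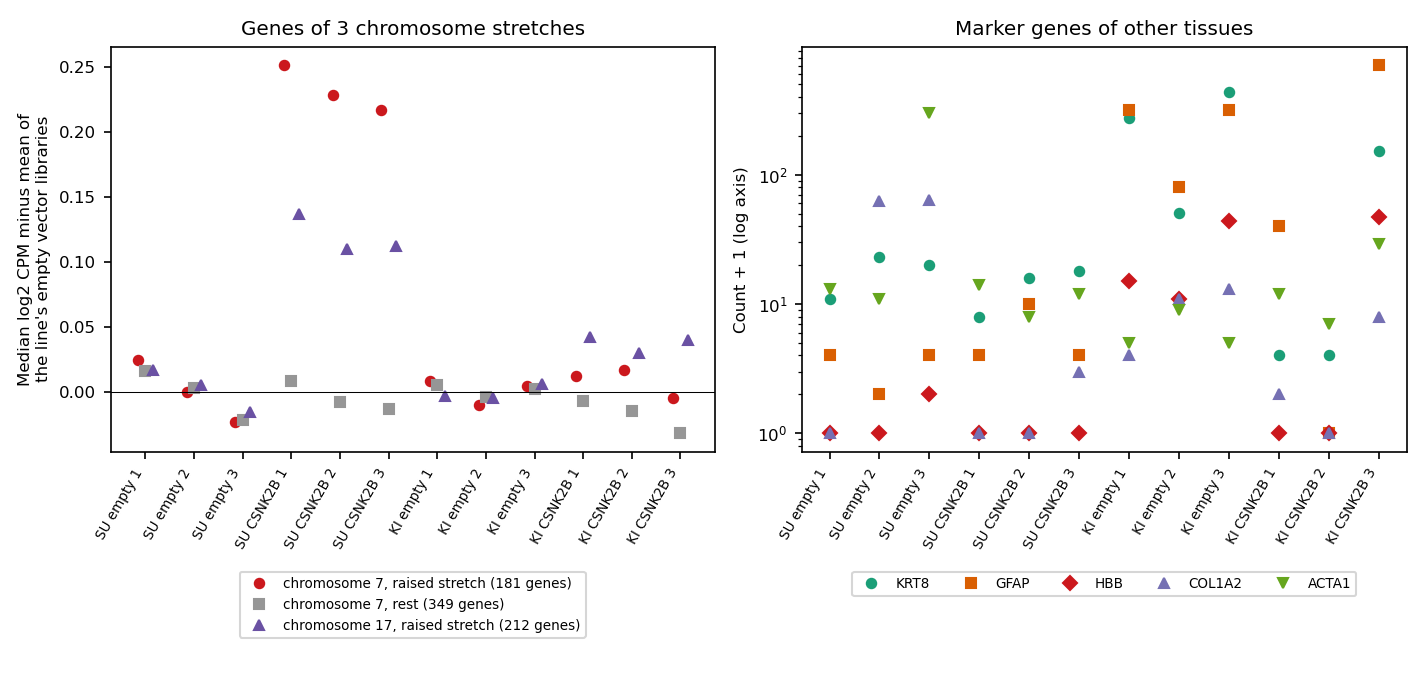
Left, the median over genes of 3 chromosome stretches of log2 CPM minus the mean of the line's own empty vector libraries, for each of the 12 libraries. Right, counts of 5 marker genes of other tissues plus 1 on a log axis. In the left panel the raised stretch of chromosome 7 sits at 0.25, 0.23 and 0.22 in the SU-DHL-1 CSNK2B libraries and near 0 elsewhere, and in the right panel KRT8 and GFAP are high in 3 KI-JK libraries.

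The vector raised CSNK2B more in SU-DHL-1 than in KI-JK. In SU-DHL-1 the gene (chr6:31666080-31670067, GRCh38.p14) stood at 30.6, 29.0 and 29.4 CPM with the empty vector and at 248, 253 and 238 CPM with the CSNK2B vector, a log2 change of 3.05 ± 0.05 (SE, 3 libraries per group, as throughout). In KI-JK it stood at 18.6, 15.9 and 18.5 CPM and then at 82.6, 82.1 and 77.9 CPM (2.19 ± 0.06). The groups did not overlap in either line. The interaction, KI-JK minus SU-DHL-1, was -0.86 ± 0.08 (edgeR quasi-likelihood test with Benjamini-Hochberg adjustment, adjusted p = 4.1e-09), and -0.65 without the 5 libraries named above (adjusted p = 0.000424). Being bulk RNA, the counts cannot tell apart more cells carrying the vector and more CSNK2B RNA per cell.

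The genes of the catalytic subunits rose in KI-JK and had no call in SU-DHL-1. CSNK2A1 went from 239, 237 and 249 to 286, 275 and 288 CPM in KI-JK (0.23 ± 0.04), and in SU-DHL-1 it stood at 319, 317 and 303 and 314, 317 and 298 CPM (-0.02 ± 0.04, adjusted p = 0.932). Its interaction was 0.24 ± 0.05 (adjusted p = 0.00149). Reads of CSNK2A1 can be shared with CSNK2A3, a near copy with at most 21 counts in any library. CSNK2A2 went from 91.6, 98.5 and 103 to 111, 116 and 124 CPM in KI-JK, with an interaction of 0.29 ± 0.07 (adjusted p = 0.00177, and 0.118 without the 5 libraries with other-tissue RNA). The line with the smaller rise of the regulatory subunit showed the rise of both catalytic subunit genes.

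**Figure D2:**
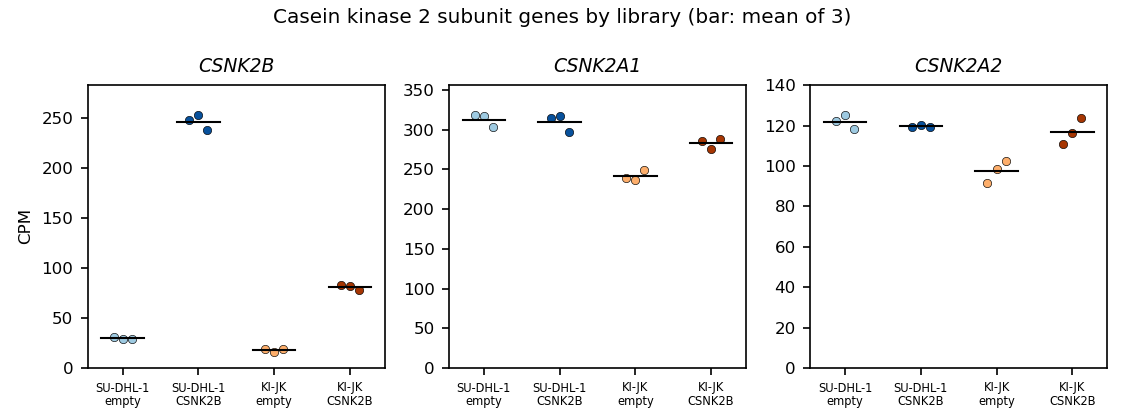
CPM of the CK2 subunit genes in each of the 12 libraries, with the mean of 3 as a bar. CSNK2B rises in both lines, to a mean of 246 CPM in SU-DHL-1 and 80.9 CPM in KI-JK, while CSNK2A1 and CSNK2A2 are higher under the CSNK2B vector only in the KI-JK panels.

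The wider response had the opposite proportion. In KI-JK 2727 of the 15564 genes rose (17.5%) and 2610 fell (16.8%), against 305 rises (1.96%) and 411 falls (2.64%) in SU-DHL-1, where a call means an adjusted p under 0.05 in edgeR. Among the 11174 genes at 1 CPM in both lines the median size of the log2 change was 0.159 in KI-JK and 0.0696 in SU-DHL-1, with median SEs of 0.0628 and 0.0664. The interaction was called for 2984 genes (19.2%), with the KI-JK response above that of SU-DHL-1 in 1671 (10.7%) and below it in 1313 (8.44%). With library size as the only scaling these became 1287 above and 1611 below, so the balance between the directions depends on the scaling. Most called interactions were small, with a median size of 0.339, and 66 above and 184 below were at least 2-fold. Without the 5 libraries with other-tissue RNA the called interactions fell in number to 1443, from 7 libraries.

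In the genes at 1 CPM in both lines the interaction was called for 2848 (25.5%), 1638 above (14.7%) and 1210 below (10.8%). Most of these, 2323, had a called response in KI-JK and none in SU-DHL-1. Another 174 had a called response in SU-DHL-1 alone, and 177 had none in either line. The lines had called responses in common for 369 genes, which is 55.5% of the 665 called in SU-DHL-1 and 7.65% of the 4826 called in KI-JK. Of the 369, 270 moved the same way and 99 opposite ways. Of the 270 the interaction was called for 75. Across the 11174 genes the responses had a Pearson r of 0.124 and a Spearman rho of 0.149, a description over genes that share the same 12 libraries.

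**Figure D3:**
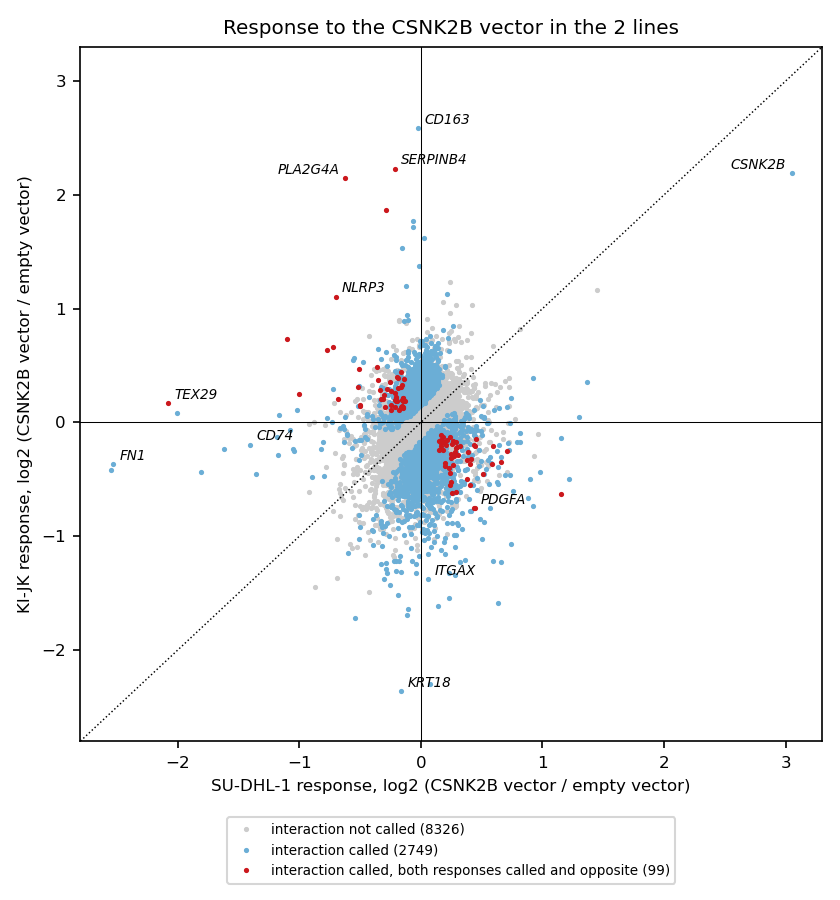
Each point is a gene at 1 CPM in both lines (11174 in all), placed by its log2 change under the CSNK2B vector in SU-DHL-1 (x axis) and in KI-JK (y axis), with equal responses on the dotted line. The cloud is taller than wide, red points are the 99 genes with called responses in opposite directions, and CSNK2B lies at 3.05 and 2.19.

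Of the 99 genes with opposite responses, 50 fell in SU-DHL-1 and rose in KI-JK, and 49 did the reverse. The smallest interaction p belonged to PLA2G4A, the cytosolic phospholipase A2 that frees arachidonic acid from membranes (chr1:186828949-186988981). It stood at 35.0, 36.6 and 32.6 CPM in SU-DHL-1 with the empty vector and at 24.5, 21.7 and 21.5 CPM with the CSNK2B vector. In KI-JK it went from 5.10, 5.02 and 5.62 to 23.7, 23.1 and 23.0 CPM. The line that started low rose to the level to which the other fell. Its interaction was 2.77 ± 0.11 (adjusted p = 1.4e-17), from -0.62 ± 0.07 in SU-DHL-1 and 2.15 ± 0.09 in KI-JK.

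NLRP3, the sensor of the inflammasome that activates interleukin-1, showed the same form. It fell from 109, 108 and 107 to 69.4, 65.3 and 64.5 CPM in SU-DHL-1 and rose from 12.8, 13.2 and 15.8 to 29.9, 31.1 and 29.1 CPM in KI-JK (interaction 1.81 ± 0.09, adjusted p = 9.19e-16). Here the 4 groups did not overlap and the lines stayed apart. PLAUR, the receptor of the protease urokinase, fell from 335, 339 and 318 to 236, 233 and 224 CPM in SU-DHL-1. It rose from 184, 191 and 188 to 242, 229.9 and 229.6 CPM in KI-JK, so that the CSNK2B libraries of the 2 lines met at 224 to 242 CPM (interaction 0.83 ± 0.05). GZMA, which encodes the cytotoxic protease granzyme A, began at like levels in both lines. It stood at 31.8, 33.5 and 32.5 CPM in SU-DHL-1 and 34.4, 31.2 and 29.8 CPM in KI-JK, and under the CSNK2B vector at 17.4, 16.9 and 14.4 and 39.9, 35.4 and 38.1 CPM (interaction 1.25 ± 0.10).

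The promoter of PLAUR is shown because it is the only one among the 10 named genes with opposite responses that holds the letters of an AP-1 site (TGACTCA or TGAGTCA, the same on both strands) in the 250 bases before the start. Of 27305 RefSeq promoters cut to the same length (GRCh38.p14), 4.16% hold it. In capitals, its first base lies 186 bases before the start (chr19:43670170-43670419, minus strand), and the match is a description of these letters.
PLAUR: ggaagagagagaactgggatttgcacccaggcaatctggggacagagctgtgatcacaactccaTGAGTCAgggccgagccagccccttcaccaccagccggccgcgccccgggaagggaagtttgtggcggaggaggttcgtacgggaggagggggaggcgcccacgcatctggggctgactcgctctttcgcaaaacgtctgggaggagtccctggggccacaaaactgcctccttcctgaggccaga

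TEX29, a gene expressed in testis, had its large change in SU-DHL-1, from 13.7, 13.3 and 13.8 to 2.88, 3.42 and 3.34 CPM (-2.08 ± 0.11), beside a small rise in KI-JK from 64.8, 66.5 and 59.1 to 75.8, 71.0 and 67.7 CPM (0.17 ± 0.05). SERPINB4, a serine protease inhibitor, fell in SU-DHL-1 from 462, 466 and 433 to 399, 412 and 364 CPM and rose in KI-JK from 0.858, 0.989 and 0.702 to 3.84, 4.18 and 4.02 CPM (interaction 2.44 ± 0.18). Its reads can be shared with the near copy SERPINB3. TM4SF1, a membrane protein gene, fell from a mean of 601 to 493 CPM in SU-DHL-1 and rose from 1.16, 0.593 and 1.24 to 3.67, 3.03 and 4.09 CPM in KI-JK (interaction 2.15 ± 0.18). The gains of SERPINB4 and TM4SF1 in KI-JK equalled 0.698% and 0.432% of the SU-DHL-1 level, those of CD163, NLRP3 and PLA2G4A 4.71%, 14.9% and 51.9%. SERPINB4 and TM4SF1 are among 44 genes high in SU-DHL-1 and under 1 CPM in KI-JK with the empty vector. Relative to the SU-DHL-1 empty vector level, the median KI-JK level of the 44 was 0.127% (empty vector) and 0.102% (CSNK2B vector). The highest were 1.68% and 2.14%.

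In the reverse direction PDGFA, a platelet-derived growth factor gene on chromosome 7, rose in SU-DHL-1 from 43.0, 39.5 and 38.5 to 54.9, 56.4 and 53.04 CPM and fell in KI-JK from 17.8, 16.9 and 17.6 to 9.34, 11.2 and 10.5 CPM (interaction -1.19 ± 0.10, adjusted p = 5.54e-10). PPP2R2C, a regulatory subunit gene of the phosphatase PP2A, gave 0.45 ± 0.08 and -0.75 ± 0.08, and PALLD, an actin-binding scaffold gene, 0.38 ± 0.05 and -0.50 ± 0.07. The 10 genes kept their interaction call and its direction in every alternative run, the 7-library fit included.

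**Figure D4:**
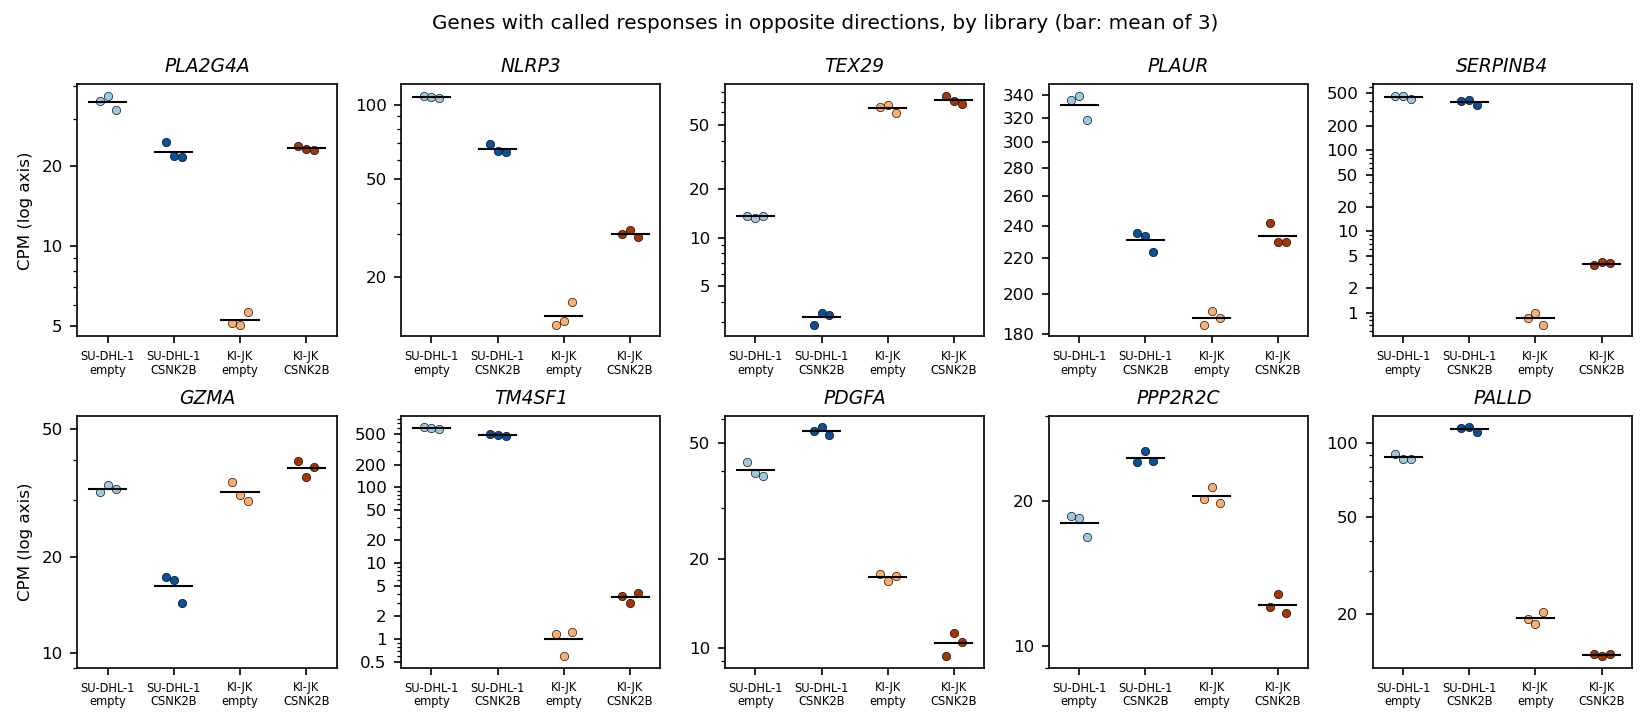
CPM on a log axis in each of the 12 libraries for 10 genes whose responses were called in opposite directions, with the mean of 3 as a bar. The first 7 genes fall in SU-DHL-1 and rise in KI-JK, and PDGFA, PPP2R2C and PALLD do the reverse.

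The largest interactions above 0 were mostly rises in KI-JK of genes that were higher in SU-DHL-1. CD163, the haemoglobin scavenger receptor of macrophages, rose in KI-JK from 6.09, 5.26 and 4.75 to 31.8, 34.1 and 31.0 CPM (2.59 ± 0.07) and stood at 589.6, 571 and 555 and 569, 569.8 and 552 CPM in SU-DHL-1 (-0.02 ± 0.04). Its interaction was 2.61 ± 0.08 (adjusted p = 2.28e-20) and 2.70 without the 5 libraries. The monocyte gene CD14 had 9, 1 and 11 counts in the empty vector and 4, 1 and 16 in the CSNK2B libraries of KI-JK. Over 13 myeloid markers, CD163 included, the summed level in KI-JK was 548, 533 and 518 CPM with the empty vector and 641, 593 and 561 CPM with the CSNK2B vector, and the part of other myeloid RNA in the rise was not tested. LBP, which encodes a lipopolysaccharide-binding protein, rose from 0.643, 0.672 and 0.785 to 2.10, 2.69 and 2.19 CPM in KI-JK (interaction 1.79 ± 0.29), and TRIM51 (interaction 1.83 ± 0.30) and OCIAD2, a mitochondrial protein gene (interaction 1.69 ± 0.23), likewise. Of the same 12 largest, 3 rested on single SU-DHL-1 libraries. FN1, the fibronectin gene, stood at 0.709, 7.76 and 1.92 CPM in the SU-DHL-1 empty vector libraries (interaction 2.17 ± 0.76), and at 0.05 (adjusted p = 1) in the 7-library fit. TNNT1, a slow muscle troponin gene, went from an interaction of 2.13 to 0.24 (adjusted p = 0.777) and TTN, the titin gene, from 2.08 to 0.88 (adjusted p = 0.0705) without SU-DHL-1 empty vector replicate 3. FN1 had 0.81 (adjusted p = 0.425) without SU-DHL-1 empty vector replicate 2. In all, FN1 lost the call without any 1 of 8 of the 12 libraries and TNNT1 without any 1 of 4, and DESeq2 and limma called neither, nor TTN.

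Among the largest interactions below 0, ITGAX, the gene of the integrin CD11c, fell in KI-JK from 39.8, 40.0 and 37.8 to 15.2, 15.2 and 14.9 CPM and stood at 17.7, 17.7 and 16.8 and 17.2, 18.4 and 18.9 CPM in SU-DHL-1 (interaction -1.44 ± 0.10, adjusted p = 7.27e-12). OSBPL5, a lipid transfer gene of the endoplasmic reticulum, fell in KI-JK from 47.3, 45.2 and 48.0 to 19.9, 20.7 and 20.1 CPM (-1.21 ± 0.07, interaction -1.57 ± 0.16). MIR210HG, the host transcript of a hypoxia-induced microRNA, had an interaction of -1.53 ± 0.22, and BLACAT1, a long non-coding RNA, one of -1.58 ± 0.22. IL19, a cytokine gene of the IL-10 family, rose in SU-DHL-1 from 1.04, 1.03 and 1.46 to 2.42, 2.67 and 2.73 CPM and fell in KI-JK, with overlapping groups of 2.36, 2.89 and 2.93 and 2.46, 1.32 and 1.55 CPM (interaction -1.78 ± 0.36). TNFSF13B, which encodes the B-cell survival factor BAFF, rose in SU-DHL-1 from 0.917, 0.550 and 1.05 to 2.16, 2.12 and 1.72 CPM, and its KI-JK response was -0.50 ± 0.22 (adjusted p = 0.0769). The largest was KRT18, a keratin gene among the epithelial markers, with 4.85, 0.870 and 7.35 CPM in the KI-JK empty vector libraries. Under the CSNK2B vector it had 0.134, 0 and 2.12 CPM. In SU-DHL-1 it was present in every library, with 287, 159 and 209 counts (empty vector) and 202, 205 and 212 counts (CSNK2B vector). Its interaction was -2.20 ± 0.63. DESeq2 did not call it (adjusted p = 0.346). It was -3.44 in the 7-library fit, -1.59 (adjusted p = 0.0998) without KI-JK empty vector replicate 3, -1.67 (adjusted p = 0.053) without KI-JK CSNK2B replicate 2 and -5.79 without KI-JK CSNK2B replicate 3.

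Genes that moved the same way in both lines could still differ in size. H6PD, a sugar phosphate dehydrogenase gene of the endoplasmic reticulum (-0.93 ± 0.04 in KI-JK, -0.18 ± 0.05 in SU-DHL-1), and HILPDA, a lipid droplet gene (-1.33 ± 0.06 and -0.28 ± 0.08), fell more in KI-JK. So did FRY, a gene of cell shape (-1.29 ± 0.08 and -0.28 ± 0.06). HLA-DRA, given with its pathway, fell more in SU-DHL-1.

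The list of ribosome biogenesis genes and other MYC targets had the largest share of members with a greater response in KI-JK. Most members make ribosomal RNA or assemble it into subunits, while ODC1, LDHA, CAD, SRM, TFRC and HSPD1 are known MYC targets with other tasks. Of 30 members at 1 CPM in both lines, 26 had an interaction above 0, 0 below, and the median was 0.38, against 14.7% above and a median of 0.02 over all 11174 genes. Of the 11174 genes 2624 rose and 2202 fell in KI-JK, and 285 rose and 380 fell in SU-DHL-1. Of the 30 members 27 rose and 0 fell in KI-JK, and 1 rose and 0 fell in SU-DHL-1. The count was 26 with any 1 library left out and 24 in the 7-library fit. RRP12, an exporter of ribosomal subunits, rose in KI-JK from 142, 146 and 152 to 236, 243 and 221 CPM and stood at 88.3, 86.0 and 83.8 and 88.1, 86.0 and 91.5 CPM in SU-DHL-1 (interaction 0.63 ± 0.06, adjusted p = 1.52e-08). NCL, the gene of the nucleolar protein nucleolin, rose in KI-JK from 1823, 1867 and 1782 to 2323, 2300.0 and 2288 CPM and stood at 2148, 2011 and 2031 and 2014, 1993 and 1905 CPM in SU-DHL-1 (interaction 0.40 ± 0.05). TFRC, the transferrin receptor gene, rose in KI-JK by 0.55 ± 0.04 and had -0.12 ± 0.04 in SU-DHL-1 (interaction 0.67 ± 0.05). MYC itself rose by 0.22 ± 0.04 in KI-JK and had 0.06 ± 0.04, with no call, in SU-DHL-1 (interaction 0.16 ± 0.05, adjusted p = 0.0307), and its interaction missed the call without any 1 of 8 of the 12 libraries (adjusted p up to 0.112).

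The E-box CACGTG, the letters that MYC and its partner are known to bind, is its own reverse complement. It occurs in the 250 bases before the start of 3 of the 22 called members with a RefSeq promoter (13.6%), against 6.49% of 27305 promoters and 9.44% of 8436 promoters of genes at 1 CPM in both lines. The list was made in part of known MYC targets, SRM and HSPD1 among them, so this share is a description and no independent evidence. These 3 promoters are shown, with the E-box in capitals, because they are the ones of the 22 that hold it. It begins 199 bases before the start in SRM, a spermidine synthase gene (chr1:11060019-11060268, minus strand), 88 bases before it in HSPD1, the mitochondrial chaperonin gene (chr2:197500275-197500524, minus strand), and 10 bases before it in UTP20, a gene of the small ribosomal subunit (chr12:101279855-101280104, plus strand).
SRM: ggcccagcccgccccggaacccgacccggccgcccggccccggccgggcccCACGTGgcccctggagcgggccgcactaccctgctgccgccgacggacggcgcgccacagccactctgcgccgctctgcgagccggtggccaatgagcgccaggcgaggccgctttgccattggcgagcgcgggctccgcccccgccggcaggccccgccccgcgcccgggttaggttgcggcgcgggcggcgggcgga
HSPD1: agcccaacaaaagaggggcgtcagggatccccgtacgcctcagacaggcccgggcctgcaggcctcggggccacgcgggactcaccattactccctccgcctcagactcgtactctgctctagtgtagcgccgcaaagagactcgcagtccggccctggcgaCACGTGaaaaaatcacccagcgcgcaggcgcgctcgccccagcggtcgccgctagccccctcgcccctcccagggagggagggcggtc
UTP20: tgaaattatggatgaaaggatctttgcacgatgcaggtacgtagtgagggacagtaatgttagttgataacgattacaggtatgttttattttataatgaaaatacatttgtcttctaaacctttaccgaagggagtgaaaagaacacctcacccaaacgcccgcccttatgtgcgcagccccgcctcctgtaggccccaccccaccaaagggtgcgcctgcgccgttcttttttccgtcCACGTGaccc
In KI-JK SRM went from 167, 160.2 and 174 to 232, 243 and 239 CPM (interaction 0.45 ± 0.06), HSPD1 had an interaction of 0.24 ± 0.05 and UTP20 one of 0.61 ± 0.08.

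Chaperones moved in the same direction. Of 20 heat shock chaperone genes 12 had an interaction above 0 and 1, the haem oxygenase gene HMOX1, below (median 0.26), with 13 rises and 2 falls in KI-JK and 0 of either in SU-DHL-1 at an adjusted p under 0.05 in edgeR. HSPH1, which encodes a large co-chaperone of HSP70, rose in KI-JK from 219.6, 213 and 222 to 363, 370.5 and 374 CPM and stood at 289, 274 and 268 and 289.9, 302 and 284 CPM in SU-DHL-1 (interaction 0.68 ± 0.05, adjusted p = 1.43e-10). DNAJA1, an HSP40 gene, had an interaction of 0.42 ± 0.05 and HSPA8, the constitutive HSP70 gene, one of 0.34 ± 0.05. In the amino acid and unfolded protein responses 9 of 30 genes were above and 2 below, with 18 rises in KI-JK and 4 in SU-DHL-1. Of all 11174 genes 2624 rose and 2202 fell in KI-JK, 285 rose and 380 fell in SU-DHL-1, and 14.7% were above and 10.8% below. HSPA5, the chaperone of the endoplasmic reticulum, had an interaction of 0.31 ± 0.05, and SDF2L1, its partner, one of 0.60 ± 0.10. PHGDH, the first enzyme of serine synthesis, went the other way, rising in SU-DHL-1 from 21.7, 17.5 and 18.2 to 36.5, 32.6 and 33.0 CPM against 26.0, 25.3 and 25.03 and 24.3, 21.6 and 21.7 CPM in KI-JK (interaction -0.99 ± 0.11). In the 7-library fit these counts were 13 and 0 for heat shock and 3 and 1 for the amino acid and unfolded protein responses.

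**Figure D5:**
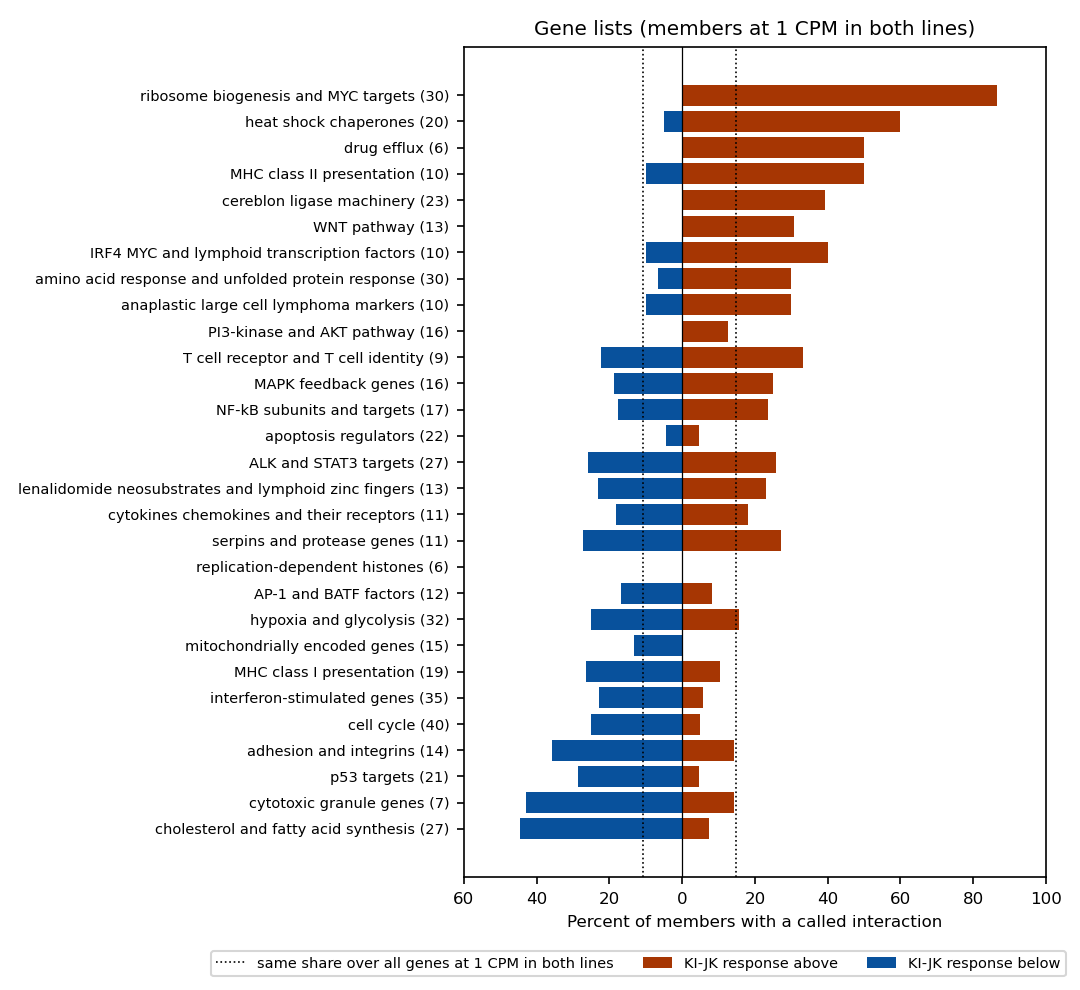
For each gene list with at least 6 members at 1 CPM in both lines (number in brackets), the percent of members with a called interaction, KI-JK response above that of SU-DHL-1 to the right and below to the left. Dotted lines mark the shares over all 11174 genes, 14.7% above and 10.8% below. The list of ribosome biogenesis and MYC targets reaches furthest to the right, with 26 of 30, and cholesterol synthesis furthest to the left, with 12 of 27.

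Cholesterol and fatty acid synthesis stood on the other side, with 12 of 27 genes below, 2 above and a median of -0.23. Over all 11174 genes 10.8% were below and 14.7% above. In KI-JK 15 fell and 2 rose, in SU-DHL-1 2 fell and 2 rose. Of the 11174 genes 2202 fell and 2624 rose in KI-JK, and 380 fell and 285 rose in SU-DHL-1. INSIG1, the sterol sensor partner that holds back cholesterol synthesis, fell in KI-JK from 169.8, 164 and 173 to 103, 98.0 and 106 CPM and stood at 64.1, 65.5 and 59.8 and 56.6, 59.5 and 61.2 CPM in SU-DHL-1 (interaction -0.63 ± 0.07, adjusted p = 6.41e-08). MSMO1, a sterol demethylation enzyme, fell in KI-JK from 59.1, 63.6 and 61.1 to 35.6, 34.7 and 35.7 CPM (interaction -0.75 ± 0.08), while HSD17B7, a later enzyme of the pathway, rose in KI-JK (0.24 ± 0.04, interaction 0.32 ± 0.05). The 7-library fit gave 5 below and 2 above.

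Of 32 hypoxia and glycolysis genes 16 fell and 3 rose in KI-JK, and 11 fell and 0 rose in SU-DHL-1. Of all 11174 genes at 1 CPM in both lines 2202 fell in KI-JK and 380 in SU-DHL-1. The interactions of the 32 genes were split, with 8 below and 5 above, and a median of -0.05 (0.01 in the 7-library fit). Over the 11174 genes 10.8% were below and 14.7% above. PFKFB4, a regulator of glycolytic flux, fell in KI-JK from 56.7, 56.3 and 53.1 to 28.9, 28.6 and 27.5 CPM and in SU-DHL-1 from 44.3, 44.7 and 44.9 to 38.8, 34.3 and 34.9 CPM (interaction -0.66 ± 0.08). ENO2, an enolase gene, had an interaction of -0.37 ± 0.06, and HK2, the hexokinase gene, rose in KI-JK and had an interaction of 0.45 ± 0.07. The 5 above became 3 without SU-DHL-1 empty vector replicate 1 or 2, SU-DHL-1 CSNK2B replicate 2 or 3 or KI-JK empty vector replicate 1, and 2 without KI-JK CSNK2B replicate 3.

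Falls in antigen presentation by MHC class II, which shows peptides to helper T cells, were called in both lines. Of 10 members at 1 CPM in both lines 5 fell in SU-DHL-1, where levels began low, and 6 in KI-JK. Among all 11174 genes at that level 380 fell in SU-DHL-1 and 2202 in KI-JK. Of the 10 members 5 had an interaction above 0 and 1 below, the regulator gene RFXAP (median 0.52), and 7 other members were set apart. Over the 11174 genes 14.7% were above and 10.8% below. HLA-DRA, the alpha chain gene of HLA-DR, fell in SU-DHL-1 from 16.6, 14.4 and 18.0 to 8.34, 7.76 and 7.69 CPM (-1.05 ± 0.08) and in KI-JK from 765, 738 and 721 to 636, 624 and 637 CPM (-0.23 ± 0.04). CD74, the invariant chain, went from 2.13, 1.44 and 3.26 to 0.566, 0.957 and 1.06 CPM in SU-DHL-1 (-1.41 ± 0.24) and had -0.19 ± 0.04 in KI-JK, and HLA-DPA1 had -1.18 ± 0.16 and -0.13 ± 0.04. Reads of HLA genes can be shared between paralogs. In MHC class I presentation 5 of 19 genes were below and 2 above, against 10.8% and 14.7% of all 11174 genes. The 2 were CALR (interaction 0.22) and PDIA3 (interaction 0.23), chaperones of the loading complex. The 5 became 3, 2 and 2 without SU-DHL-1 empty vector replicate 1, the same group's replicate 2 and SU-DHL-1 CSNK2B replicate 1, and 0 in the 7-library fit.

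Of 35 interferon-stimulated genes 20 fell and 2 rose in KI-JK, and 8 fell and 0 rose in SU-DHL-1. Of all 11174 genes at 1 CPM in both lines 2202 fell in KI-JK and 380 in SU-DHL-1. Of the interactions of the 35 genes 8 were below and 2 above, with a median of -0.07, against 10.8% below and 14.7% above over the 11174. GBP2, an interferon-induced GTPase gene, fell in KI-JK from 95.3, 91.9 and 86.2 to 60.9, 59.2 and 57.8 CPM and in SU-DHL-1 from 183, 183 and 174 to 159, 162 and 158 CPM (interaction -0.45 ± 0.06). STAT2, a transducer of type I interferon signals, had an interaction of -0.40 ± 0.08 and the ubiquitin ligase gene TRIM22 one of -0.55 ± 0.08. The 8 became 5 without SU-DHL-1 empty vector replicate 2 or 3 or SU-DHL-1 CSNK2B replicate 1 or 2, and 4 in the 7-library fit.

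Signalling genes went in several directions. The counts below stand beside shares of 14.7% above and 10.8% below over all 11174 genes. Feedback genes of the MAPK pathway had 4 above and 3 below of 16, with SPRY4, a receptor signal inhibitor, rising in KI-JK from 24.0, 25.8 and 25.1 to 40.6, 38.1 and 35.3 CPM against 18.4, 21.8 and 20.3 and 19.8, 20.0 and 18.3 CPM in SU-DHL-1 (interaction 0.65 ± 0.10), and the ETS factor gene ETV5 at an interaction of 0.63 ± 0.10. Targets of ALK and STAT3 had 7 above and 7 below of 27. IL2RA, the alpha chain of the interleukin-2 receptor, rose in SU-DHL-1 by 0.15 ± 0.03 and fell in KI-JK (-0.24 ± 0.03), and IL1RAP, the interleukin-1 receptor accessory gene, fell in SU-DHL-1 (-0.16 ± 0.04) and rose in KI-JK (0.33 ± 0.04). IL6R, the interleukin-6 receptor gene, fell in KI-JK (-0.47 ± 0.04) and had 0.01 ± 0.04 in SU-DHL-1, and ALK had an interaction of 0.27 ± 0.05. The 7 above became 4 without SU-DHL-1 empty vector replicate 1, SU-DHL-1 CSNK2B replicate 3 or KI-JK empty vector replicate 2. NF-kB genes had 4 above and 3 below of 17, with TNFAIP3, the brake protein A20, rising in SU-DHL-1 from 28.6, 27.9 and 29.7 to 40.7, 38.6 and 38.3 CPM against 59.95, 56.9 and 60.6 and 54.7, 53.2 and 55.5 CPM in KI-JK (interaction -0.56 ± 0.08). The 3 became 1 without SU-DHL-1 empty vector replicate 3 or SU-DHL-1 CSNK2B replicate 2. WNT pathway genes had 4 above of 13 and 0 below, such as GSK3B, a kinase of beta-catenin (interaction 0.29 ± 0.06, adjusted p = 0.0928 in the 7-library fit), and the co-receptor gene LRP6 (interaction 0.51 ± 0.11). In the 7-library fit the counts above and below were 3 and 1 for MAPK feedback, 3 and 4 for ALK and STAT3, 1 and 1 for NF-kB and 1 and 0 for WNT.

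Lymphoid transcription factors and the cereblon pathway showed small differences. For comparison, 14.7% of all 11174 genes had a called interaction above 0 and 10.8% one below. IKZF1, which encodes Ikaros, stood at 353, 357 and 332 and 393, 397 and 392 CPM in SU-DHL-1 and at 347, 348 and 364 and 341, 327 and 347 CPM in KI-JK (interaction -0.24 ± 0.05, adjusted p = 0.00121, and 0.067 in the 7-library fit). It lies on chromosome 7 in a stretch where 91 of 181 genes rose and 1 fell in SU-DHL-1. IKZF3 had at most 2 counts in any library and was not tested. ZFP91 had an interaction of 0.19 ± 0.07 (adjusted p = 0.0488), which missed the call without any 1 of 9 of the 12 libraries (adjusted p up to 0.194), and CRBN one of -0.09 ± 0.10 (adjusted p = 0.597). IRF4, a lymphoid factor, fell in SU-DHL-1 (-0.20 ± 0.04) and had -0.04 ± 0.04 in KI-JK (interaction 0.16 ± 0.05, adjusted p = 0.0266, and up to 0.113 with 1 library left out, lost for 5 of the 12). ETS1, a lymphoid ETS factor, fell in SU-DHL-1 from 150.2, 141 and 144 to 112, 110.4 and 108 CPM (interaction 0.45 ± 0.06). JUN, an AP-1 factor, fell in KI-JK from 128, 130.4 and 131 to 106, 102 and 97.1 CPM (-0.35 ± 0.04), with an interaction of -0.28 ± 0.06 (adjusted p = 0.00177, and 0.105 in the 7-library fit), and its partner gene BATF3 had an interaction of -0.13 ± 0.06 (adjusted p = 0.111). In the list of cereblon ligase machinery, which also holds genes with other tasks such as GLUL, 9 of 23 genes were above and 0 below. Among the 9 were GLUL, the glutamine synthetase gene (interaction 0.54 ± 0.06), and COPS2, a COP9 signalosome gene (interaction 0.26 ± 0.07). CUL4A, the ligase scaffold, was another (interaction 0.25 ± 0.06). COPS2 and CUL4A lost the call in the 7-library fit (adjusted p = 0.121 and 0.125), and CUL4A also with no filter. The 9 became 5 without SU-DHL-1 CSNK2B replicate 3, 4 without KI-JK empty vector replicate 2 and 2 in the 7-library fit.

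Cell cycle genes had 10 of 40 below and 2 above, and 4 and 2 in the 7-library fit. TOP2A, the mitotic topoisomerase gene, rose in SU-DHL-1 by 0.16 ± 0.04 and fell in KI-JK (-0.16 ± 0.04), and CCNE1, the cyclin E gene, rose in KI-JK from 20.2, 18.8 and 18.8 to 28.9, 23.3 and 26.8 CPM (interaction 0.44 ± 0.10). Targets of p53 had 6 of 21 below and 1, SESN2, above. Over all 11174 genes, the background for each list here, 10.8% were below and 14.7% above. FDXR, a mitochondrial electron carrier gene, rose in SU-DHL-1 from 43.6, 44.4 and 43.4 to 54.7, 50.7 and 49.6 CPM and fell in KI-JK from a mean of 35.9 to 26.5 CPM (interaction -0.68 ± 0.08), and the DNA repair gene DDB2 fell in KI-JK (-0.52 ± 0.06, interaction -0.54 ± 0.09). CDKN1A, the p21 gene, had an interaction of -0.25 ± 0.05. Of 22 apoptosis regulators 1 was above and 1 below, the latter BAX (interaction -0.17 ± 0.06, adjusted p = 0.0404, lost without any 1 of 6 of the 12 libraries, with an adjusted p up to 0.126).

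A stretch of chromosome 7 differed between the responses as a block. Of 181 genes starting in its first 60 Mb, 91 rose and 1 fell in SU-DHL-1, while 28 rose and 28 fell in KI-JK, and 76 interactions were below 0 and 2 above. The median over these genes, relative to the empty vector, was 0.25, 0.23 and 0.22 in the SU-DHL-1 CSNK2B libraries and 0.012, 0.017 and -0.005 in those of KI-JK. The other 349 genes of the chromosome had 4 rises and 11 falls in SU-DHL-1. On chromosome 17 the 212 genes between 30 and 50 Mb had 49 rises and 3 falls in SU-DHL-1. The medians in the SU-DHL-1 CSNK2B libraries were 0.14, 0.11 and 0.11. In KI-JK these genes had 48 rises and 35 falls, with CSNK2B library medians of 0.042, 0.03 and 0.04. Of their interactions 42 were below 0 and 13 above. Among all 11174 genes at 1 CPM in both lines, 285 rose and 380 fell in SU-DHL-1, and 2624 and 2202 in KI-JK. Of the 11174 interactions 10.8% were called below 0 and 14.7% above. PDGFA, IKZF1, MAFK and TNS3, an adhesion gene (interaction -0.31 ± 0.05), lie on chromosome 7. DNA copy number was not measured in these libraries. Outside these 2 chromosomes 2625 interactions were called.

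Genes set apart for a level below 1 CPM in 1 line were read in the other line. NDNF, which encodes a secreted neuron-derived factor (chr4:121035613-121072535), had 0 counts in the SU-DHL-1 empty vector libraries and 20.4, 18.6 and 17.7 CPM under the CSNK2B vector, at least 355-fold higher, taking 3 counts in the whole empty vector group as the floor. It had 0 counts in all 6 KI-JK libraries, which allows a level of up to 0.0201 CPM. SLC2A5, the fructose transporter gene, fell in SU-DHL-1 from 65.2, 61.2 and 65.8 to 22.1, 18.7 and 19.6 CPM (-1.67 ± 0.08) and was at most 0.141 CPM in KI-JK. SULF1, a heparan sulfatase gene, fell from 49.5, 50.6 and 47.0 to 30.1, 32.5 and 29.9 CPM, and RGS16, a regulator of G protein signals, rose from 30.9, 31.0 and 29.7 to 49.4, 43.6 and 46.0 CPM. CSMD1, a complement regulator gene, rose from 11.3, 10.5 and 9.03 to 18.3, 20.6 and 19.4 CPM. The fall of ACTA1 in SU-DHL-1 (-3.53 ± 0.77) came from 1 library, and without SU-DHL-1 empty vector replicate 3 it was -0.13 (adjusted p = 0.983).

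Of the 1015 genes below 1 CPM in SU-DHL-1, 238 fell and 36 rose in KI-JK, against 16.8% and 17.5% of all tested genes. These genes passed the filter through KI-JK. The summed level of 11 glial markers in KI-JK was 111, 90.8 and 117 CPM with the empty vector and 68.6, 71.5 and 110 CPM with the CSNK2B vector. In the 7-library fit the counts were 116 falls and 19 rises. IL1RN, the gene of the interleukin-1 receptor antagonist, rose from 3.39, 2.25 and 4.34 to 10.0, 10.3 and 11.4 CPM (1.67 ± 0.18), and DMD, the dystrophin gene, from 0.944, 0.831 and 1.57 to 2.50, 3.62 and 3.60 CPM (1.54 ± 0.31). TMEM155 fell from 12.3, 12.3 and 11.8 to 6.03, 4.26 and 4.69 CPM, TMOD1, an actin-capping gene, from 5.02, 3.60 and 5.04 to 1.70, 2.09 and 1.91 CPM (adjusted p = 0.0503 in the 7-library fit) and EPSTI1, an interferon-induced gene, from 5.10, 7.32 and 5.62 to 2.73, 2.00 and 3.07 CPM. The keratin gene KRT8, one of the other-tissue markers given above, fell as well (-2.38 ± 0.56). It was -3.85 (adjusted p = 7.58e-05) in the 7-library fit and -6.28 without KI-JK CSNK2B replicate 3, and DESeq2 did not call it (adjusted p = 0.119). In the 1178 genes below 1 CPM in KI-JK, SU-DHL-1 showed 14 rises and 24 falls, against 1.96% and 2.64% of all tested genes.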

How the data were processed

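RNA-seq counts of 12 libraries from 2 cell lines in 4 groups of 3 were analysed. The deposited values are whole-number counts per gene whose totals differ between libraries, and no header or label records a normalization by the authors. Per the submitters' processing notes the tools were STAR 2.6.1d, DESeq2 1.20.0 and edgeR 3.24.3 with hg38, and the counting tool and its use of strand are not given in the sources used here, so reads of overlapping or antisense genes cannot be told apart. The 27 gene names that read as dates took the symbol of their identifier. Group means were fitted in edgeR 4.0.16 (R 4.3.3; filterByExpr, TMM scaling, glmQLFit), and 3 contrasts were tested two-sided, each with p-values adjusted by Benjamini and Hochberg's method over the 15564 genes. Each SE was obtained from the log2 change and its F statistic. CPM uses TMM-scaled totals. Gene positions and promoters are RefSeq's (GRCh38.p14, 40268 genes placed). No pair of replicates agreed within sampling noise (chi-square per degree of freedom at least 2.02). The scripts were tested on simulated data.

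The genes, the 33 lists and the tests were chosen with earlier results of these data known. Named were the genes of the design, the 12 largest called interactions in each direction, the called genes of smallest p with opposite (10) or equal (6) directions, up to 3 called members of each list and the largest responses among genes set apart. The genes whose promoters are printed, the single called members HMOX1, RFXAP and SESN2, the chromosome stretches and the markers of other tissues were chosen after their values were seen. Alternatives changed the scaling, the filter and the tool (DESeq2 1.42.0, limma 3.58.1), left out each library, added a replicate block and, chosen after seeing the data, left out 5 libraries with other-tissue RNA or chromosomes 7 and 17. Some named genes are not reported here.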

Additional observations from a re-analysis of the deposited data

Results flagged for a closer look

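The difference between the responses of the lines was itself called by the edgeR interaction test for 2984 genes. Of the genes with both responses called and opposite, the 10 with the smallest interaction p had these interaction log2 changes (KI-JK minus SU-DHL-1). Above 0 were PLA2G4A (2.77), SERPINB4 (2.44), TEX29 (2.25), TM4SF1 (2.15), NLRP3 (1.81), GZMA (1.25) and PLAUR (0.83). Below 0 were PPP2R2C (-1.20), PDGFA (-1.19) and PALLD (-0.88). Each had 3 libraries per group, and the groups did not overlap in either line. The choice of these genes by small p favours such separation, so it adds no support. PDGFA lies in the raised stretch of chromosome 7, whose part in its response was not tested. Groups of 3 are too small for a test of single outlying libraries.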

How the results depend on the processing

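Across 3 other scalings, 2 other filters, DESeq2, limma voom and single libraries left out, the interaction count stayed within 1.5 times 2984, as did the KI-JK response count (5337) and the count in genes at 1 CPM in both lines. The SU-DHL-1 response count of 716 ran from 475 (without SU-DHL-1 empty vector replicate 1) to 782 with 1 library left out, and the CSNK2B interaction from -0.95 to -0.83. Without the 5 libraries with other-tissue RNA, which leaves 1 library in 2 of the groups and assumes they vary like the others, the counts were 1443 (interaction), 1382 (genes at 1 CPM in both lines), 3211 (KI-JK) and 245 (SU-DHL-1). That fit has fewer samples, and the cause of the lower counts was not tested further. In it the ACTA1 response in SU-DHL-1 turned to 0.088 (adjusted p = 1). Outside chromosomes 7 and 17 the SU-DHL-1 count was 534. Of 117 named called interactions 86 kept direction and call in up to 21 alternatives each, 31 lost the call in at least 1 and 0 reversed. Deviations of same-numbered libraries from their group means had correlations of 0.082, 0.034 and 0.246 in SU-DHL-1 and 0.018, 0.095 and 0.146 in KI-JK. Except for SU-DHL-1 number 2, each empty vector library correlated best with the CSNK2B library of its own number. Whether the numbers pair the samples cannot be told from so few libraries. With a replicate block the counts were 3456 (interaction), 3289, 5739 (KI-JK) and 946 (SU-DHL-1), and CSNK2B had -0.86.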

Other observations

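Long non-coding RNAs were more often lower in the KI-JK response than higher. Of 420 at 1 CPM in both lines, 63 had an interaction below 0 and 15 above, with a median of -0.23, against 1092 below and 1604 above of 10008 protein-coding genes (median 0.03). Their share of all counts was 0.643%, 0.643% and 0.624% in the KI-JK empty vector libraries and 0.569%, 0.574% and 0.569% under the CSNK2B vector. In SU-DHL-1 it ran from 0.683% to 0.714% and from 0.706% to 0.729%, so the groups overlapped there.

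Of 9 T-cell genes at 1 CPM in both lines 3 had an interaction above 0 and 2 below. Among all 11174 genes at that level, the background for each list here, 14.7% were above and 10.8% below. LCP2, a T-cell receptor adaptor gene, fell in SU-DHL-1 from 3.71, 3.64 and 3.61 to 1.65, 1.81 and 1.42 CPM and stood at 29.7, 30.9 and 28.8 and 31.0, 30.5 and 32.1 CPM in KI-JK (interaction 1.24 ± 0.17). CD5, a receptor that dampens T-cell signals, fell in SU-DHL-1 (-0.17 ± 0.05) and rose in KI-JK (0.44 ± 0.06), with an interaction of 0.61 ± 0.07. PIK3R6, a regulatory subunit gene of PI3-kinase gamma, fell in SU-DHL-1 from 31.8, 31.9 and 32.8 to 17.2, 17.5 and 17.3 CPM and in KI-JK from 99.4, 106 and 96.8 to 73.1, 71.8 and 72.0 CPM (interaction 0.41 ± 0.08, adjusted p = 0.0888 without the 5 libraries with other-tissue RNA). Among drug efflux genes, 3 of 6 were above and 0 below, with 1 above in the 7-library fit and 2 above and 1 below with library size as the only scaling. The call of ABCC1 was lost without any 1 of 9 of the 12 libraries, and the list's median of 0.03 was -0.01 with that scaling. ABCC4, a nucleotide and drug exporter, rose in KI-JK from 54.3, 53.6 and 57.4 to 71.6, 73.5 and 77.2 CPM (0.43 ± 0.05, interaction 0.43 ± 0.08). Of the 15 mitochondrially encoded genes 0 were above in edgeR and 2, the ribosomal RNAs MT-RNR2 (interaction -0.26 ± 0.06) and MT-RNR1 (interaction -0.26 ± 0.09, lost with DESeq2 and without any 1 of 7 of the 12 libraries), below, and 6 were above without KI-JK empty vector replicate 2.

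The share of called interactions differed between chromosomes, a description without a test. On chromosome 19, 75 of 692 genes were above (10.8%) and 110 below (15.9%), with a KI-JK median of -0.09. On chromosome 18, 27 of 147 were above (18.4%) and 5 below (3.4%). Over all 11174 genes at 1 CPM in both lines 14.7% were above and 10.8% below. Across 10759 genes with a length, the interaction had a Spearman rho of 0.065 with gene length, a description over genes of the same libraries.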
